A study of Mus musculus with 8 samples.

Results

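The genes described here are components of the complement system and the proteins that regulate it on cell membranes, taken from a list of 9 mouse gene symbols: Cd55, Cr1l, Cd59a, C3, C1qa, C1qb, C1qbp, Serping1 and Cfp. The rule for the list names symbols and uses no measured value, but the list was chosen with earlier results of these data known. Ranks given below may therefore not be free of that choice. Of the 9, 7 had a value in all 8 libraries, among 14042 genes measured. Cd59a, which blocks the membrane attack complex, and Serping1, the C1 inhibitor, were not analysed here.

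The study sequenced mRNA from mouse CD4 T cells of 2 genotypes and 2 sorts, with 2 libraries in each of 4 groups. The mutant (KO) lacked the C5a receptor and is given as C5aR1-/-, and its control is given as WT. For the T follicular helper (TFH) groups, 10000000 spleen cells of the KO or WT donor, depleted of CD8 cells, were injected into (bxd)F1 mice. On day 7 the donor CD4 cells that were CXCR5+ and PD1hi were sorted from the spleens, giving the TFH KO and TFH WT groups. The naive KO and naive WT groups were CD4 T cells sorted as CD62Lhi and CD44 lo from mice of the same 2 genotypes. The sources used here do not give the ages of the mice, the donor strain or the extent of the deletion, nor whether any other allele was present. The TFH groups thus differ from the naive groups by transfer into an F1 host as well as by the sort, and these cannot be told apart. All values below are the deposited log2 expression values, whose sorted values nearly match between libraries, as quantile normalization would give. Whether they were corrected for transcript length is not given, so levels are compared between libraries and not between genes.

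Complement is activated when C1q binds immune complexes, when lectins bind sugars, or spontaneously through the alternative pathway, which properdin stabilizes. These routes meet at C3, whose cleavage starts opsonization and leads to C5a, the ligand of C5aR1. CD55 on the cell surface speeds the decay of the enzymes that cleave C3, and in mice CRRY, the product of Cr1l, does this and also helps factor I to inactivate C3b. T cells can make C3, and in mice the CD55 on T cells and on the cells that present antigen to them limits local complement activation during T cell responses.

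Several facts of the libraries bear on these genes. The labelled sort was reflected in Pdcd1, which encodes PD1, in part: its level was 11.88 to 12.85 in the 4 TFH libraries and 10.80 to 11.97 in the 4 naive libraries. Cxcr5 went against the sort, with 10.85 to 11.56 in TFH and 11.56 to 12.45 in naive libraries, and so did Cd44, with 11.97 to 12.11 in TFH and 12.53 to 13.04 in naive libraries. The group names TFH and naive are therefore used as labels only. The mean of 6 CD4 T cell markers was 14.66 to 14.86 in every library. The mean of 17 monocyte and macrophage markers was 7.63 and 8.63 in TFH KO, 7.39 and 8.54 in TFH WT, 9.61 and 9.80 in naive KO, and 11.18 and 9.66 in naive WT libraries. Naive WT replicate 1 stood highest on this list. The mean of 13 B cell markers was 7.19 and 10.94 in TFH KO, 7.38 and 9.49 in TFH WT, 9.59 and 8.73 in naive KO, and 8.92 and 8.24 in naive WT libraries, and it was highest in TFH KO replicate 2. In both TFH groups replicate 2 lay above replicate 1 on the macrophage and on the B cell list. The mean of 6 NK and CD8 T cell markers was 7.91 and 8.77 in TFH KO, 7.32 and 8.15 in TFH WT, 9.36 and 9.02 in naive KO, and 9.37 and 9.43 in naive WT libraries. All 6 of these markers had a negative TFH minus naive difference in WT and in KO. In WT 3 of them were called lower, where 13.7% of all genes were, and in KO 2, where 10.4% were. All 6 had a positive difference in TFH KO against TFH WT and a positive interaction, with 0 called in limma. In these 2 comparisons 1 and 2 of them had an unadjusted p below 0.05 in limma, against 3.6% and 4.37% of all genes. Their part in the results was not tested. No marker of these lists was at 0, and the lowest single values were 4.86 for macrophage, 3.50 for B cell and 5.70 for NK and CD8 T cell markers. Naive KO replicate 1 had an Xist level of 14.61, against 4.44 to 5.56 in the other libraries, so its sex differed from theirs. In that library the Y-linked genes Ddx3y, Eif2s3y, Kdm5d and Uty still read 5.67, 5.76, 6.23 and 7.71. A value of 0 is thus not the floor of these data, and marker values in this low range do not show expression. In bulk RNA, fewer cells of a type and less RNA per cell cannot be told apart.

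Among the 7 measured genes, the KO and WT libraries did not differ past the threshold for any gene in either sort, and Cd55 was lower in TFH WT than in naive WT libraries. The comparison of TFH KO with TFH WT called, in limma, 0 of 7 genes at an adjusted p below 0.05, against 0.0% of all genes (506 genes, or 3.6%, had an unadjusted p below 0.05, of which 1 was in the list). In naive KO against naive WT it called 0 of 7, against 0.0712% of all genes (355, or 2.53%, had an unadjusted p below 0.05, and 0 of them were in the list). It called 1 of 7 in TFH WT against naive WT, against 26.3% of all genes (37.8% had an unadjusted p below 0.05, and 5 of them were in the list). It called 0 of 7 in TFH KO against naive KO, against 19.5% of all genes (4574, or 32.6%, had an unadjusted p below 0.05, and 2 were in the list). The interaction, which asks whether the TFH minus naive difference was different in KO and WT, called 0 of 7, against 0.0142% of all genes (614, or 4.37%, had an unadjusted p below 0.05, and 1 was in the list). With the same order of comparisons, the median log2 difference over the 7 genes was 0.22, -0.22, -0.63, -0.29 and 0.89, against medians over all genes of 0.00, 0.01, 0.01, -0.01 and -0.01. The medians of -0.63 and 0.89 are the values of Cd55 itself. C1qa, C1qb and Cfp moved together (Pearson r of 0.971 to 0.997), so these medians do not show a shift of the listed genes as a set. The TFH and naive libraries did not overlap for 6 of the 7 genes in WT, against 65.0% of all genes, and for 6 of the 7 in KO, against 58.2%, with 2 genes higher and 4 lower each time.

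**Figure D1:**
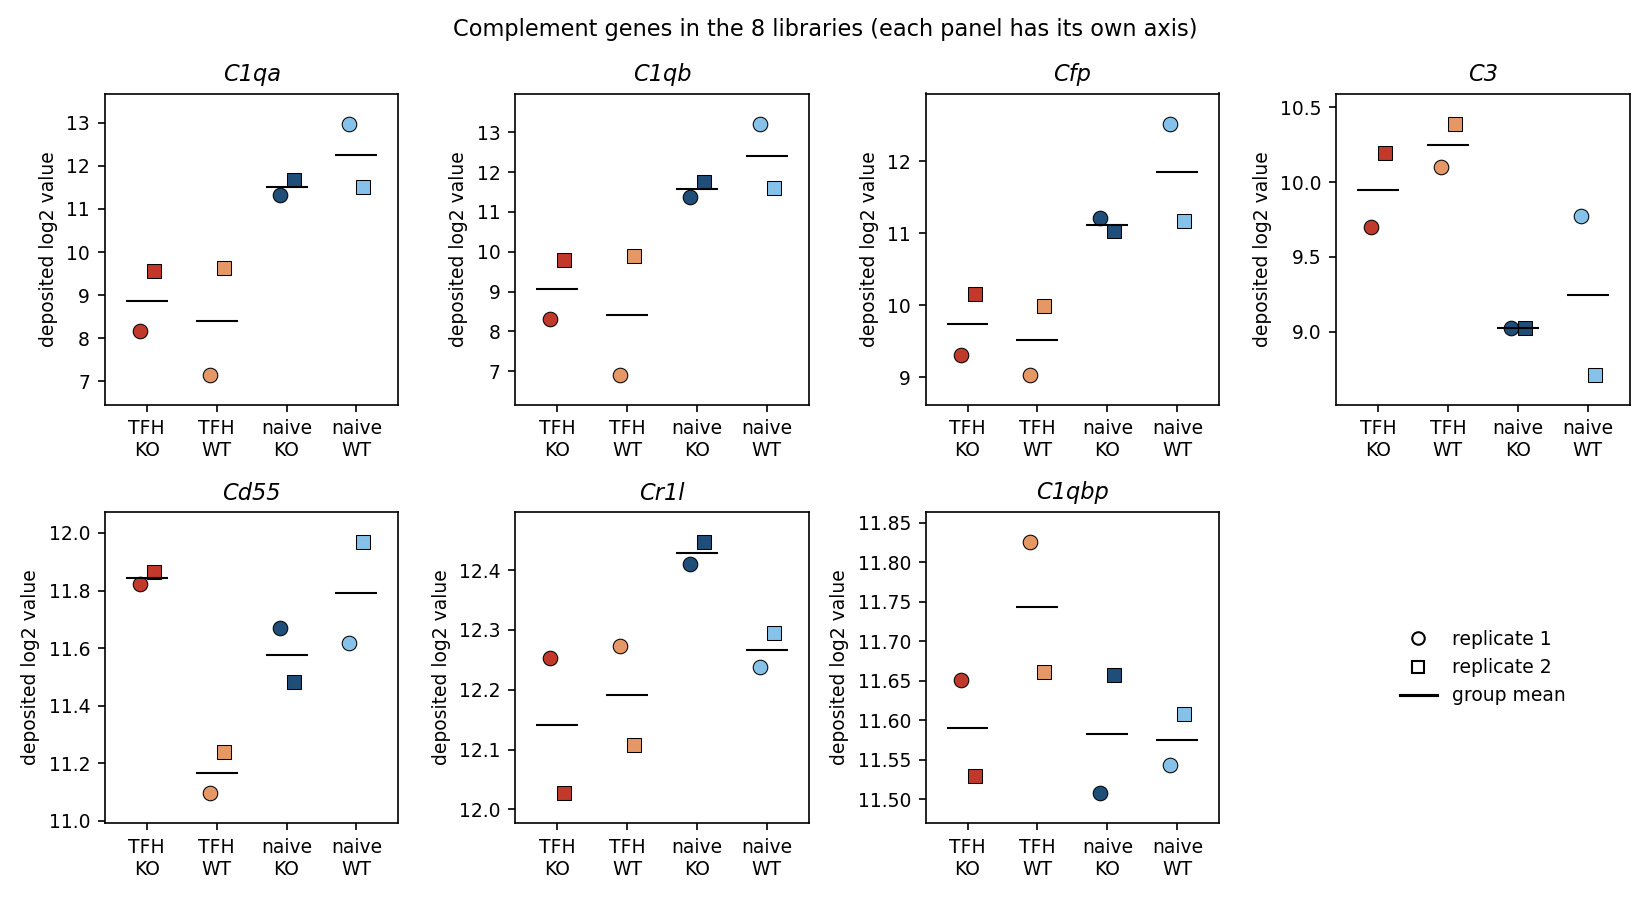
Deposited log2 expression of the 7 measured complement genes in each of the 8 libraries, with TFH KO, TFH WT, naive KO and naive WT from left to right, points for libraries and bars for group means. Cd55 is lowest in the TFH WT libraries (11.10 and 11.24), and C1qa, C1qb and Cfp are lower in every TFH library than in every naive library. Within a genotype, the TFH and naive libraries did not overlap for 65.0% of all genes in WT and 58.2% in KO.

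Cd55 encodes decay-accelerating factor, a membrane protein held by a glycosylphosphatidylinositol (GPI) anchor. The gene lies on chromosome 1 from 130439027 to 130462744 on the minus strand (GRCm38, GENCODE vM21), and its exons overlap the antisense gene Gm16083. The strand setting of the authors' counting is not given in the sources used here, so reads of Cd55 and Gm16083 cannot be told apart. The 250 bases before its annotated start (RefSeq, GRCm38.p6, chr1:130462745-130462994, minus strand) are shown because Cd55 was the listed gene that passed the test. All letters are lower case because none of 3 searched motifs was found on either strand, namely GAGGAA (the core bound by ETS factors, including PU.1), TGANTCA (the AP-1 site) and TGACGTCA (the cAMP response element). No match says only that these letters are absent from this window. Over 27025 mouse promoter windows of the same length, 23.1% held GAGGAA, 6.87% held TGANTCA and 1.62% held TGACGTCA.
Cd55: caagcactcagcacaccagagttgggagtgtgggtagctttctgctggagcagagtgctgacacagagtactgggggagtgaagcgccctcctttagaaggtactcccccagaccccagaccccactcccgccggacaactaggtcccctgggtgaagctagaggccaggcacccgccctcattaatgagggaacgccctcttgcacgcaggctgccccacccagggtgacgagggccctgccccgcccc

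The Cd55 level was 11.82 and 11.87 in TFH KO libraries, against 11.10 and 11.24 in TFH WT libraries. It was 11.67 and 11.48 in naive KO libraries, against 11.62 and 11.97 in naive WT libraries. The TFH WT libraries were thus the lowest 2 of the 8, below every library of the other 3 groups, and the TFH KO libraries lay within the range of the naive WT libraries. Group means were 11.84 ± 0.03 in TFH KO, 11.17 ± 0.10 in TFH WT, 11.58 ± 0.13 in naive KO and 11.79 ± 0.25 in naive WT (SD, n = 2 each). In order of mean level the groups ran TFH WT, naive KO, naive WT and TFH KO. The naive WT libraries overlapped both naive KO and TFH KO, and TFH WT overlapped no group.

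Cd55 fell in TFH WT against naive WT libraries, with a log2 difference of -0.63 ± 0.13 (SE), a ratio of 0.648 and a 95% interval of -0.91 to -0.35 (limma, adjusted p = 0.00423). In the same comparison 13.7% of all genes were called lower. In TFH KO against naive KO libraries the difference was 0.27 ± 0.13, with an interval of -0.01 to 0.55 (limma, adjusted p = 0.169), so the 2 genotypes differed in sign, with no overlap in either, as for 1.89% of all genes. The test of that contrast, the interaction, gave 0.89 ± 0.18 with an interval of 0.50 to 1.29 and an unadjusted p of 0.00038. It ranked 14 among 14042 genes by p and missed the threshold after adjustment over all genes (limma, adjusted p = 0.381).

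The genotype difference of Cd55 in TFH cells was 0.68 ± 0.13, a ratio of 1.60, with an interval of 0.40 to 0.96 and an unadjusted p of 0.000214. Both TFH KO libraries lay above both TFH WT libraries, as did 16.5% of all genes. The gene ranked 4 of 14042 by p in this comparison, and the adjusted p in limma was 0.751. In naive cells the KO minus WT difference was -0.22 ± 0.13 with an interval of -0.50 to 0.06, the libraries overlapped, and the adjusted p in limma was 1.0. The 3 comparisons that use the TFH WT libraries share them, so their values for Cd55 are not independent of each other. The call in TFH WT against naive WT was kept under all 19 alternative settings, with differences of -0.82 to -0.45 and adjusted p of 0.00287 to 0.0479 in limma. The TFH KO minus TFH WT difference was 0.61 to 0.75 under the same settings and was called under none of them.

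**Figure D2:**
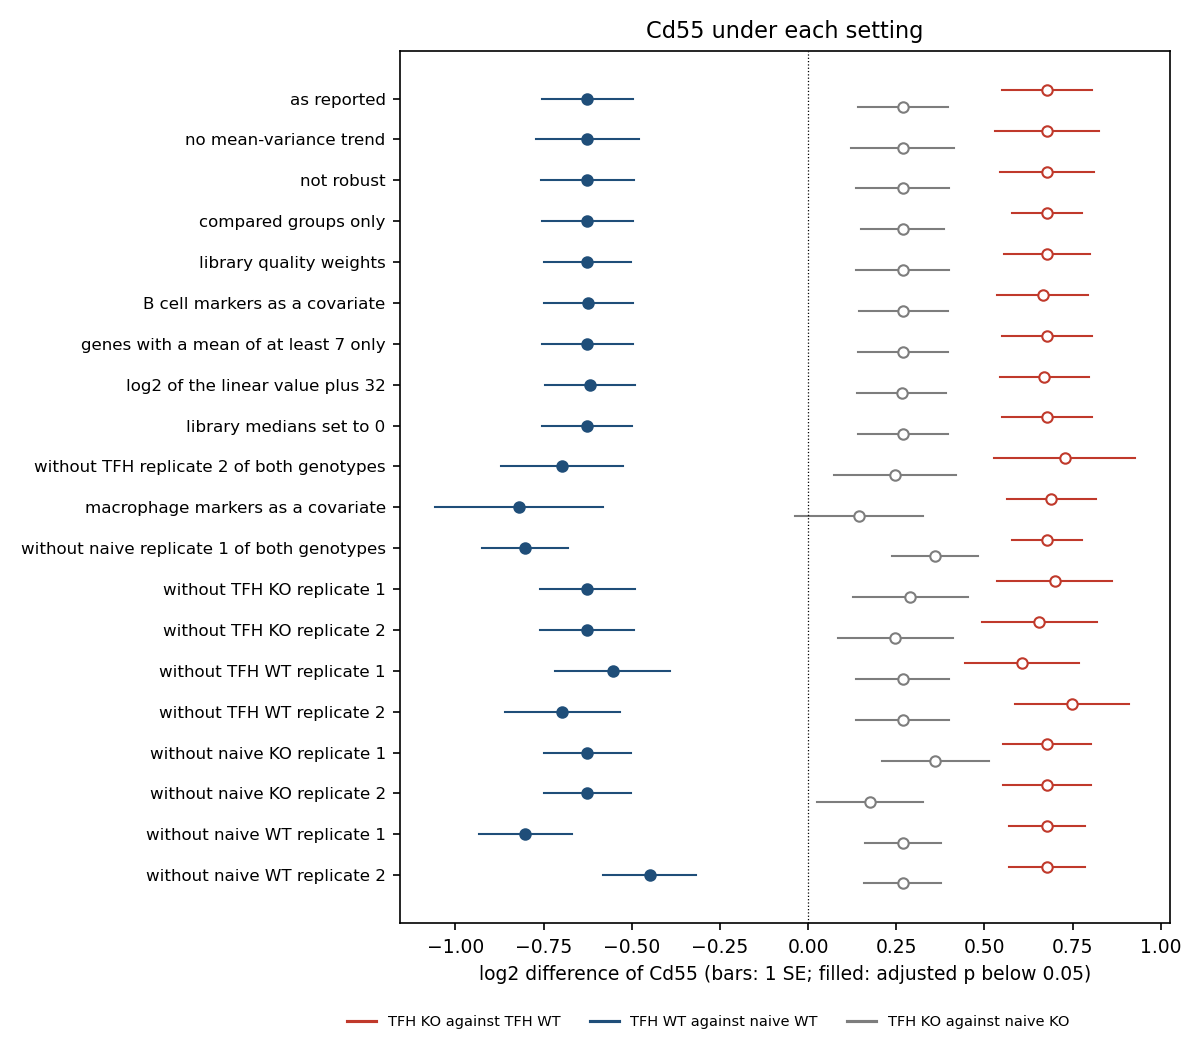
Log2 difference of Cd55 under the settings tried, for TFH KO against TFH WT, TFH WT against naive WT and TFH KO against naive KO, with the value as reported and each alternative as a point. The 3 sets of values keep their sign, at 0.61 to 0.75, -0.82 to -0.45 and 0.14 to 0.36.

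By the rule fixed for similar patterns, the 3 genes with the highest Pearson r to Cd55 over the 8 libraries were Dqx1 (0.963), Endov (0.953) and Sp4 (0.949), out of all genes measured. These 8 libraries share group structure, so the values are a description. Dqx1 was 10.23 and 10.22 in TFH KO, 9.69 and 9.72 in TFH WT, 9.99 and 10.02 in naive KO, and 10.16 and 10.37 in naive WT libraries. As for Cd55, its lowest 2 values were those of TFH WT.

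Cr1l, the gene for CRRY, is also on chromosome 1, from 195097382 to 195131586 on the minus strand. Its level was 12.25 and 12.03 in TFH KO, 12.27 and 12.11 in TFH WT, 12.41 and 12.45 in naive KO, and 12.24 and 12.30 in naive WT libraries. All 8 libraries thus lay within 0.42 of each other, and the naive KO libraries were the highest 2. The KO minus WT difference was -0.05 ± 0.11 in TFH cells, with an interval of -0.29 to 0.19, and 0.16 ± 0.11 in naive cells, with an interval of -0.08 to 0.40 (limma, adjusted p = 1.0 for both). Both naive KO libraries lay above both naive WT libraries, as for 15.2% of all genes. In TFH KO against naive KO libraries Cr1l differed by -0.29 ± 0.11 without overlap and missed the threshold (limma, adjusted p = 0.0866). In TFH WT against naive WT libraries the difference was -0.08 ± 0.11 (limma, adjusted p = 0.654). The fall of Cd55 in TFH WT was therefore not matched by a call for Cr1l, and the difference between the 2 genes was not tested. The unlisted membrane regulators Cd55b and Cd46 differed by -0.02 ± 0.29 and -0.60 ± 0.26 in TFH WT against naive WT (limma, adjusted p = 0.974 and 0.113). Neither was called, and both read low, at 6.63 to 7.64 over the libraries.

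C1qa and C1qb encode the A and B chains of C1q, the recognition part of the classical pathway, which macrophages and dendritic cells are known to make. With C1qc, the gene of the C chain, they form a cluster on chromosome 4, minus strand. C1qa lies at 136895917 to 136898803, C1qc at 136889804 to 136893065 and C1qb at 136880129 to 136886187 (GRCm38, GENCODE vM21), with gaps of 2.85 and 3.62 kb. The promoter windows of C1qb (chr4:136886201-136886450) and C1qc (chr4:136892915-136893164), both read from the minus strand of GRCm38.p6 in RefSeq, are shown because these genes moved together across the libraries. Capitals mark a match of GAGGAA or its reverse complement TTCCTC. It began at -30 in C1qb and at -193 in C1qc, counted from the RefSeq start. GENCODE places the start of C1qc at 136893065, inside the window shown, so part of that window lies within the GENCODE gene.
C1qb: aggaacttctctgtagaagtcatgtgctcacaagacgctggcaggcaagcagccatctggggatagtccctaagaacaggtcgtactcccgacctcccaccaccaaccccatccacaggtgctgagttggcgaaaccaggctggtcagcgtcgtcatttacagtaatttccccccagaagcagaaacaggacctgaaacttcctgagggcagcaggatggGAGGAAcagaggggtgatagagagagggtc
C1qc: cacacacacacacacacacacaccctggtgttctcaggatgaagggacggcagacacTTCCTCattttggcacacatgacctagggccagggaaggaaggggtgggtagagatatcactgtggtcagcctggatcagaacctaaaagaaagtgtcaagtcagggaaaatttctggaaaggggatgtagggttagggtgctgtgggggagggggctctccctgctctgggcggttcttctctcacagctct

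A match of these letters is a description and not a binding site, and 23.1% of all windows hold one. The promoter of C1qa is not shown.

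The C1qa level was 8.16 and 9.55 in TFH KO libraries, against 7.16 and 9.63 in TFH WT libraries, and the groups overlapped. It was 11.33 and 11.66 in naive KO libraries, against 12.98 and 11.51 in naive WT libraries, again with overlap. All 4 TFH libraries lay below all 4 naive libraries, and the share of all genes with such an order was not counted. C1qb had 8.31 and 9.80 in TFH KO, 6.92 and 9.90 in TFH WT, 11.37 and 11.76 in naive KO, and 13.22 and 11.60 in naive WT libraries. Within a library, C1qb minus C1qa was -0.24 to 0.27 and C1qc minus C1qa was -0.25 to 0.30, while C1qa ranged over 5.82 and C1qb over 6.30 log2 units across the libraries.

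In TFH WT against naive WT libraries C1qa differed by -3.85 ± 1.11, with an interval of -6.87 to -0.82 (limma, adjusted p = 0.0765), and C1qb by -4.00 ± 1.29 (limma, adjusted p = 0.1). In TFH KO against naive KO libraries the differences were -2.64 ± 1.11 for C1qa and -2.51 ± 1.29 for C1qb (limma, adjusted p = 0.199 and 0.278). Neither gene passed the threshold in either comparison, although the groups did not overlap. Without the robust option of limma both were called in WT, with adjusted p of 0.00757 for C1qa and 0.012 for C1qb, and C1qa was called in KO with 0.0451. The KO minus WT difference of C1qa was 0.46 ± 1.11 in TFH cells and -0.74 ± 1.11 in naive cells (limma, adjusted p = 1.0 for both). The interval in TFH cells ran from -2.56 to 3.49, so genotype differences of either sign within it are compatible with the values.

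Cfp encodes properdin, a plasma protein that myeloid cells and T cells are known to make, and lies on the X chromosome from 20925454 to 20931555 on the minus strand. Its level was 9.32 and 10.16 in TFH KO, 9.04 and 9.99 in TFH WT, 11.21 and 11.03 in naive KO, and 12.52 and 11.18 in naive WT libraries. Every TFH library lay below every naive library, again with no count of such an order over all genes, and naive WT replicate 1 was the highest. Cfp differed by -2.34 ± 0.63 in TFH WT against naive WT libraries (limma, adjusted p = 0.0627) and by -1.38 ± 0.63 in TFH KO against naive KO libraries (limma, adjusted p = 0.227). Without naive WT replicate 2 the WT difference was -3.01 and was called (limma, adjusted p = 0.0351). The WT difference was also called without the robust option (limma, adjusted p = 0.00663). Naive KO replicate 1 differed in sex, and the part of sex in the Cfp level was not tested.

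The macrophage markers moved with these 3 genes. Of the 17 markers, 16 had a negative difference in TFH WT against naive WT libraries, with 4 called lower (Cd14, Timd4, Mertk and Spic) and a median of -2.59, where 13.7% of all genes were called lower. In TFH KO against naive KO libraries 16 were negative, 1 was called lower (Cd14), where 10.4% of all genes were, and the median was -1.54. Over the 8 libraries the Pearson r with the marker mean was 0.984 for C1qa, 0.978 for C1qb and 0.995 for Cfp, a description over libraries that fall into 2 sorts. Relative to the marker mean of the same library, Cfp varied little, from 1.23 to 1.69 in all libraries. C1qa was 0.54 and 0.93 above the marker mean in TFH KO and -0.23 and 1.09 in TFH WT, against 1.73 and 1.86 in naive KO and 1.80 and 1.85 in naive WT libraries. With the marker mean as a covariate, a setting added after the data had been seen, C1qa differed by -0.42 in TFH WT against naive WT, C1qb by -0.09 and Cfp by -0.26, with none called. The marker mean did not overlap between the sorts (7.39 to 8.63 in TFH, 9.61 to 11.18 in naive libraries). A gene that follows it must lose most of its sort difference in this fit, wherever its RNA came from. The part of macrophages in these levels was not tested.

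**Figure D3:**
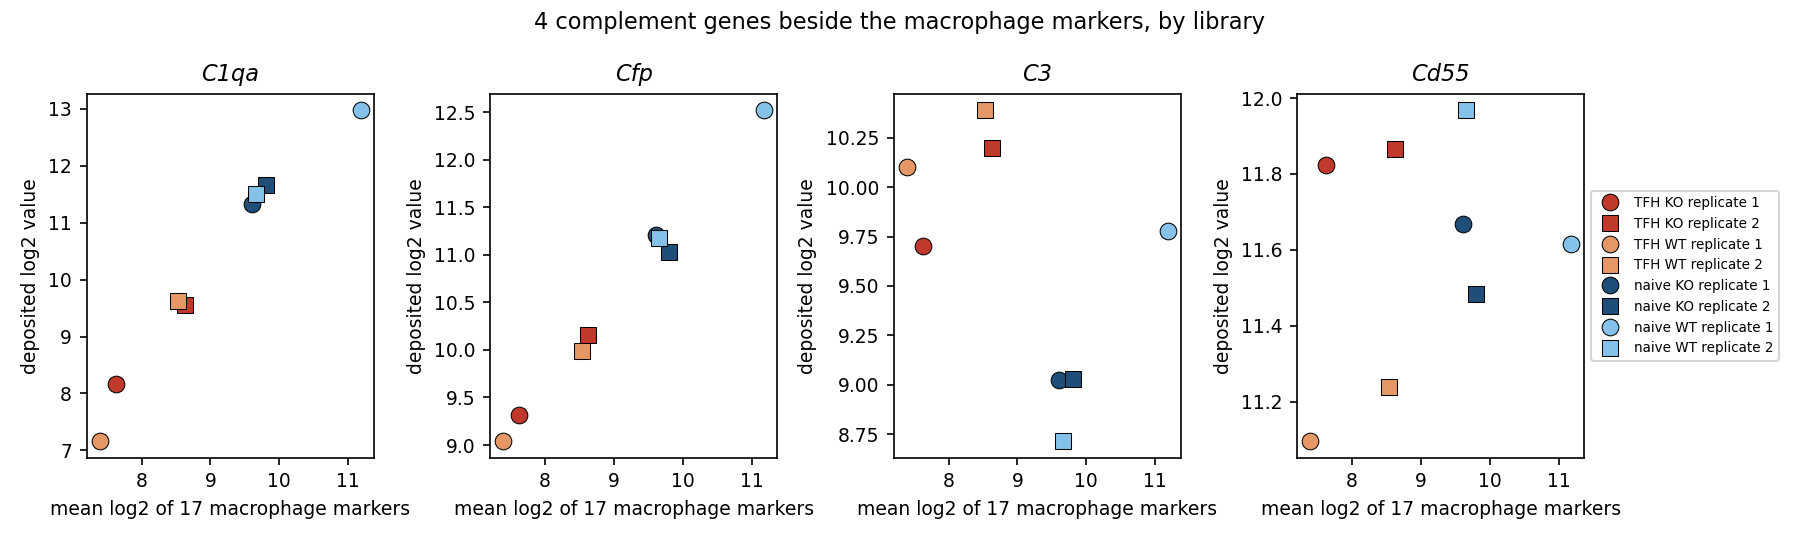
Log2 level of C1qa, Cfp, C3 and Cd55 in each library against the mean log2 level of 17 macrophage markers in the same library, coloured by group. C1qa and Cfp climb with the marker mean (r of 0.984 and 0.995), and the r of Cd55 is 0.297. The highest 3 C3 levels are those of TFH libraries, which have the lowest marker means.

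C3, on chromosome 17 from 57203970 to 57228136 on the minus strand, encodes the protein on which all activation routes converge. Its level was 9.70 and 10.20 in TFH KO, 10.10 and 10.39 in TFH WT, 9.02 and 9.03 in naive KO, and 9.78 and 8.71 in naive WT libraries. The highest 3 values were those of TFH libraries, and naive WT replicate 1 lay above TFH KO replicate 1, so the sorts overlapped across genotypes and not within either genotype. C3 differed by 1.001 ± 0.35 in TFH WT against naive WT libraries, with an interval of 0.16 to 1.85 (limma, adjusted p = 0.0838), and by 0.92 ± 0.35 in TFH KO against naive KO libraries (limma, adjusted p = 0.124). Neither was called. Without naive WT replicate 1, the library with the highest macrophage marker mean, the WT difference was 1.53 and was called. The KO difference uses no naive WT library and stayed at 0.92. It was called without either naive WT library, and leaving one out alters only the estimate of its spread. With the macrophage marker mean as a covariate the WT and KO differences were 2.29 and 1.75, also called (limma, adjusted p = 0.000912 and 0.000488). That mean did not overlap between the sorts (7.39 to 8.63 in TFH, 9.61 to 11.18 in naive libraries). This fit can therefore hardly separate it from the sort, and it makes the C3 difference no firmer. The KO minus WT difference of C3 was -0.30 ± 0.35 in TFH cells and -0.22 ± 0.35 in naive cells (limma, adjusted p = 1.0 for both).

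C1qbp encodes a protein first found as a binder of C1q heads that resides mainly in the mitochondrial matrix. The gene lies on chromosome 11 from 70977836 to 70983026 on the minus strand. Its level was 11.65 and 11.53 in TFH KO, 11.83 and 11.66 in TFH WT, 11.51 and 11.66 in naive KO, and 11.54 and 11.61 in naive WT libraries. Both TFH KO libraries lay below both TFH WT libraries, as for 16.5% of all genes, and the difference was -0.15 ± 0.11 with an interval of -0.39 to 0.08 (limma, adjusted p = 1.0). In naive cells it was 0.01 ± 0.11 (limma, adjusted p = 1.0). The TFH minus naive difference was 0.17 ± 0.11 in WT and 0.01 ± 0.11 in KO (limma, adjusted p = 0.279 and 0.973). Of 78 mitochondrial ribosomal protein genes, a group with the same location, 0 were called between genotypes in either sort, with 3 at an unadjusted p below 0.05 in limma each time. Of the 78, 7 were called higher and 3 lower in TFH WT against naive WT libraries, with a median of 0.05, against 12.6% and 13.7% of all genes. TFH KO against naive KO libraries had 1 called higher and 5 lower, with a median of -0.09, against 9.12% and 10.4% of all genes. These counts lie below the shares over all genes. Mrps6 rose by 0.90 ± 0.12 in WT (limma, adjusted p = 0.000398). Mrps30 rose by 0.70 ± 0.10 in WT and by 0.67 ± 0.10 in KO (limma, adjusted p = 0.000515 and 0.000885), and Mrpl51 fell by 0.66 ± 0.12 in KO (limma, adjusted p = 0.00283).

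**Figure D4:**
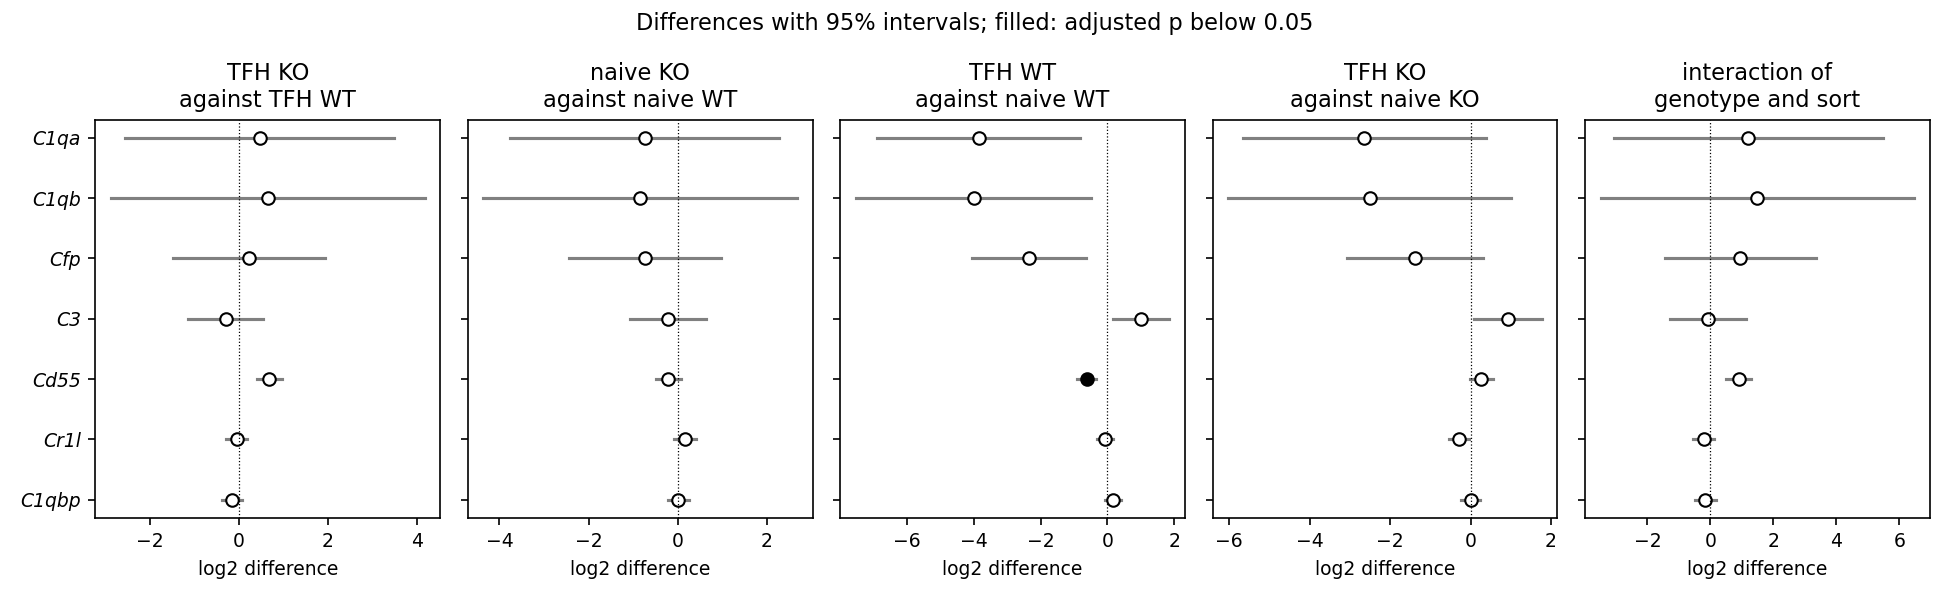
Log2 difference of the 7 genes in the 5 comparisons, as points with 95% intervals from limma. The intervals are not adjusted for the number of genes, and only Cd55 in TFH WT against naive WT was called. The Cd55 intervals exclude 0 in TFH KO against TFH WT, in TFH WT against naive WT and in the interaction. Those of C1qa, C1qb, Cfp and C3 exclude 0 in TFH WT against naive WT, and those of C3 and Cr1l in TFH KO against naive KO. The intervals of C1qa and C1qb span several log2 units.

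Beyond the listed genes, 28 of 49 other complement genes were measured. Of these, 0 were called in KO against WT libraries in either sort or in the interaction, and 0 had an unadjusted p below 0.05 in limma. TFH WT against naive WT libraries had 1 called higher and 3 lower, with a median of -0.09. The same comparison in KO had 3 called higher and 1 lower, with a median of 0.00. Over all genes, 12.6% were called higher and 13.7% lower in the WT comparison, and 9.12% higher and 10.4% lower in the KO comparison. The receptor genes C5ar1, C5ar2 and C3ar1 are not analysed here, and the genotypes rest on the labels.

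Masp2, the gene of a protease of the lectin pathway, was called in both genotypes. Its level was 8.13 and 8.15 in TFH KO, 7.79 and 7.91 in TFH WT, 6.30 and 6.13 in naive KO, and 6.77 and 6.19 in naive WT libraries. In the naive libraries Masp2 lay within 5.67 to 7.71, the span that Y-linked genes read in naive KO replicate 1, so its expression there is not shown. It rose by 1.37 ± 0.24 in TFH WT against naive WT (limma, adjusted p = 0.00161) and by 1.92 ± 0.24 in TFH KO against naive KO (limma, adjusted p = 0.000247), and both calls were kept under all 19 settings. Mbl2, the gene of a mannose-binding lectin that works with MASP proteases, read 5.62 to 7.84 over the libraries, which is also about that span. It rose by 1.35 ± 0.37 in TFH KO against naive KO (limma, adjusted p = 0.0282). Its levels there were 7.84 and 6.82 in TFH KO, against 5.62 and 6.35 in naive KO, and the call was lost without TFH KO replicate 1 (0.84, adjusted p = 0.173) and without naive KO replicate 1 (0.99, adjusted p = 0.158). It was also lost without the mean-variance trend, with the compared groups only, with the macrophage covariate and without naive replicate 1 of both genotypes (adjusted p of 0.0611, 0.0566, 0.267 and 0.204).

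Itgb2, the beta chain of complement receptors 3 and 4, fell by 0.48 ± 0.12 on the log2 scale in TFH WT against naive WT (limma, adjusted p = 0.0136) and by 0.57 ± 0.12 in TFH KO against naive KO (limma, adjusted p = 0.00775). The WT call was lost without TFH WT replicate 1, TFH WT replicate 2 or naive WT replicate 1 (adjusted p of 0.0511, 0.0799 and 0.126 in limma), and the KO call without TFH KO replicate 2 (0.0769). With the macrophage covariate both were lost (-0.38 in WT and -0.50 in KO, adjusted p of 0.337 and 0.0806). Cd93, once taken for a C1q receptor, fell by 1.24 ± 0.34 (limma, adjusted p = 0.0251), and C6, of the membrane attack complex, by 1.36 ± 0.34 (limma, adjusted p = 0.0279), both in TFH WT against naive WT. The call of Cd93 was lost when TFH WT replicate 1 (-0.81) or naive WT replicate 1 (-0.96) was left out. The call of C6 was lost when TFH WT replicate 1 was left out (-1.09, adjusted p = 0.143), and likewise for TFH WT replicate 2, either TFH KO library or either naive KO library (adjusted p of 0.0507 to 0.0624). Cd93 and C6 also lost the call with the macrophage covariate. Calr, which binds C1q when it is at the surface, rose by 0.60 ± 0.11 in TFH KO against naive KO (limma, adjusted p = 0.00348), and its KO minus WT difference had opposite signs in the 2 sorts without overlap, as for 5.96% of all genes. The call was lost without TFH replicate 2 of both genotypes (0.51, adjusted p = 0.0626).

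C1qc and Fcna followed C1qa. Fcna, the gene of ficolin A, a lectin pathway recognition protein of macrophages, had 7.94 and 9.40 in TFH KO, 7.02 and 9.39 in TFH WT, 11.38 and 10.92 in naive KO, and 13.07 and 11.26 in naive WT libraries. In TFH WT against naive WT it differed by -3.96 ± 1.16 (limma, adjusted p = 0.0793) and C1qc by -4.00 ± 1.25 (limma, adjusted p = 0.0932), so neither was called. Cr2, the complement receptor of B cells, had 7.78 and 11.35 in TFH KO, 7.61 and 9.70 in TFH WT, 9.85 and 9.04 in naive KO, and 9.32 and 8.71 in naive WT libraries, and it followed the B cell marker mean given above.

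**Figure D5:**
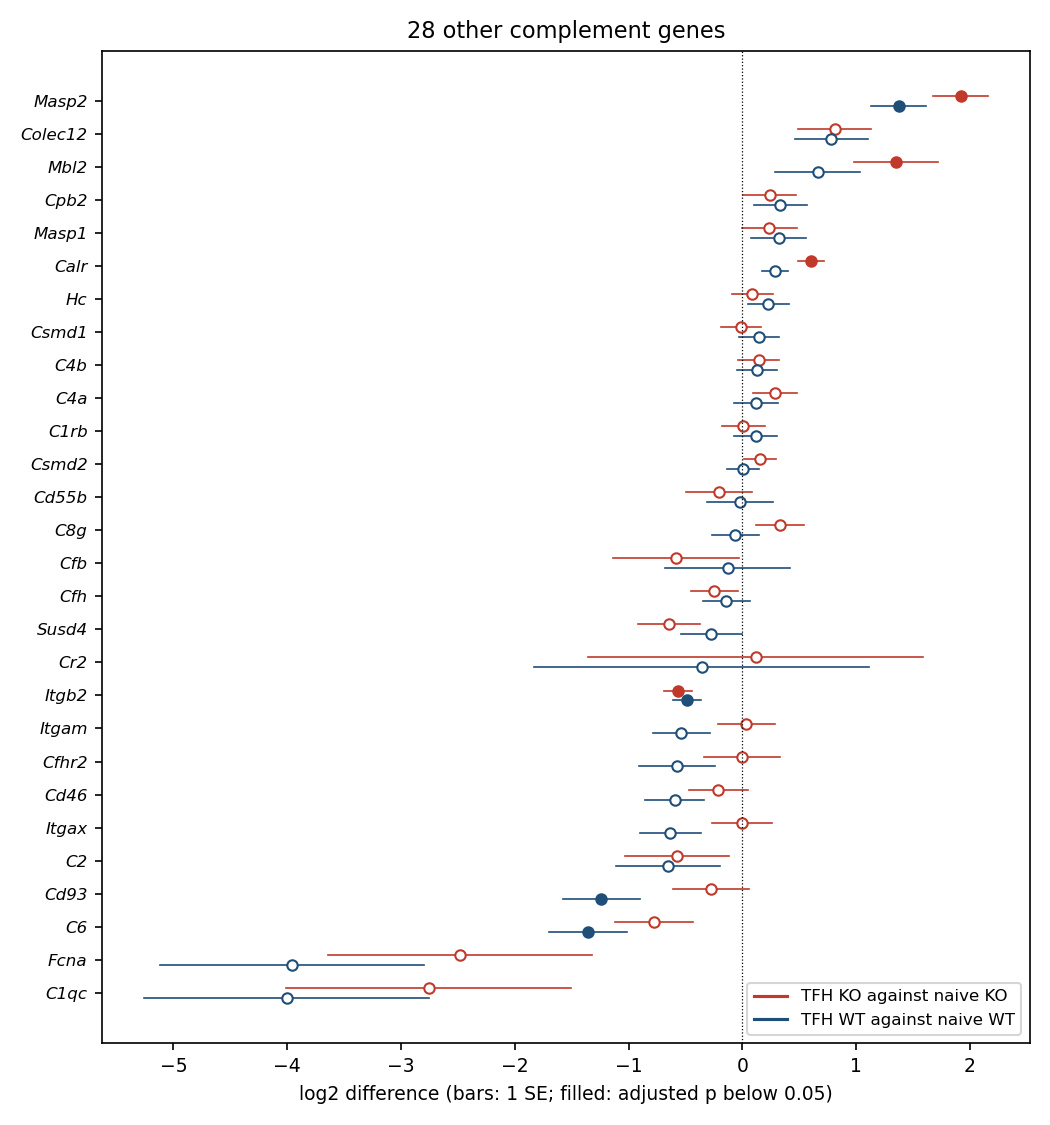
Log2 difference of the 28 other measured complement genes in TFH KO against naive KO and in TFH WT against naive WT, with called genes marked. Masp2 is the gene called higher in both (1.92 and 1.37), and C1qc and Fcna have the most negative values without being called.

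Because CD55 needs a GPI anchor, genes of the anchor were examined with it. Of 26 measured genes of GPI synthesis and transfer, 0 were called between genotypes in either sort, with 0 at an unadjusted p below 0.05 in limma. Between TFH WT and naive WT libraries 0 were called higher and 7 lower in TFH, with a median of -0.19. Between TFH KO and naive KO libraries 1 was called higher and 6 lower in TFH, with a median of -0.17. Over all genes 13.7% and 10.4% were called lower in these comparisons. Pigw, an acyltransferase of the early steps, fell by 0.91 ± 0.19 in WT and by 0.95 ± 0.19 in KO (limma, adjusted p = 0.00447 and 0.00455), and Pigh, a subunit of the first enzyme, fell by 0.92 ± 0.19 and 1.13 ± 0.19 (limma, adjusted p = 0.00493 and 0.00192). The WT call of Pigh was lost without TFH WT replicate 2 (-0.76, adjusted p = 0.0565).

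Of 11 other GPI-anchored surface proteins of lymphocytes, 0 were called between genotypes in either sort, with 0 at an unadjusted p below 0.05 in limma. In TFH WT against naive WT libraries 2 of the 11 were called higher and 6 lower, and in TFH KO against naive KO libraries 2 were called higher and 5 lower. The shares over all genes were 12.6% higher and 13.7% lower in WT, and 9.12% higher and 10.4% lower in KO. Ly6e fell by 1.004 ± 0.12 in WT and by 0.95 ± 0.12 in KO (limma, adjusted p = 0.000129 and 0.000239). Thy1 fell by 0.99 ± 0.14 in WT and by 0.87 ± 0.14 in KO (limma, adjusted p = 0.000614 and 0.00179). Ly6c1 fell by 1.82 ± 0.25 in WT and by 1.60 ± 0.25 in KO (limma, adjusted p = 0.000364 and 0.00108). Cd48 fell by 0.85 ± 0.13 in WT and by 0.89 ± 0.13 in KO (limma, adjusted p = 0.00059 and 0.000545). These 4 genes were thus lower in TFH libraries of either genotype, whereas Cd55 was called lower in WT alone and its interaction missed the threshold.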

How the data were processed

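RNA sequencing libraries of 51 bp single-end reads were aligned with BWA to mm10, per the submitters' processing notes, with no version, counter, annotation or normalization stated there. Each deposited table holds log2 expression values of 1 library for 14042 symbols. The sorted values of all libraries match to within 0.03, apart from the lowest percentile, which is what quantile normalization gives. Depth is unknown. The values were fitted as deposited with limma 3.58.1 (R 4.3.3), with 1 mean per group, all 8 libraries, 4 residual degrees of freedom, and a mean-variance trend with robust moderation. Benjamini-Hochberg adjustment covered all genes, and an adjusted p below 0.05 was a call. The fit was tested on simulated data. Labels do not say that libraries came from separate animals, so p-values measure the spread between samples, which may be technical. With 2 libraries against 2, the smallest two-sided exact permutation p is 0.33. Members and lists, with the rule for named genes (all listed genes, and of each other list at most the 4 called members with the lowest p, taken in that order), were chosen with earlier results of these data known. Cd55b, Cd46, C1qc, Fcna and Cr2 are named outside that rule. Alternatives changed the scaling, filter, offset, moderation, weights, covariates and libraries. Positions come from GENCODE vM21 and promoters from RefSeq.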

Additional observations from a re-analysis of the deposited data

Results flagged for a closer look

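Cd55 stood out because its TFH minus naive difference ran in opposite directions in KO and WT, with no overlap of the libraries in either genotype. The difference was 0.27 in KO and -0.63 in WT, and the interaction was 0.89 ± 0.18 (limma, adjusted p = 0.381). Such opposite, non-overlapping differences were found for 1.89% of all genes. Calr, whose product is a chaperone of the endoplasmic reticulum, had KO minus WT differences of opposite sign in the 2 sorts, with no overlap. Its level was 14.95 and 15.13 in TFH KO, against 14.87 and 14.93 in TFH WT, and 14.41 and 14.47 in naive KO, against 14.74 and 14.49 in naive WT libraries. The interaction was 0.31 ± 0.16 (limma, adjusted p = 0.997), and 5.96% of all genes showed such a pattern.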

How the results depend on the processing

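No paired analysis was possible because the labels carry no replicate numbers, and those used here follow the order of deposit and only name libraries. TFH KO and TFH WT libraries of the same number nevertheless had a Pearson r over genes of 0.9924 and 0.993, against 0.9829 and 0.9903 within TFH KO and within TFH WT. Of 658 alternative values of the listed genes, 606 kept their direction and their side of the threshold, 31 changed sign and 21 passed the threshold where the reported value had not. Depth is unknown, since the tables hold no counts. The cause of the changes below was not tested. In TFH WT against naive WT the number of called listed genes was 3 without the mean-variance trend, 5 without robust moderation, 4 with B cell markers as a covariate, 2 with macrophage markers as a covariate, 2 without naive replicate 1 of both genotypes, and 1 to 2 when 1 library was left out. In TFH KO against naive KO it was 1 without robust moderation, 2 with the compared groups only, 1 with either covariate, 1 without naive replicate 1 of both genotypes, and 0 to 1 with 1 library left out. The macrophage covariate and the removal of naive replicate 1 of both genotypes were chosen after seeing the data. The macrophage marker mean did not overlap between the sorts, so TFH minus naive differences fitted with it can hardly be separated from it. Among all genes, calls in the interaction numbered 0 without the trend, 4 with the macrophage covariate, 9 without naive replicate 1 of both genotypes and 1 to 7 with 1 library left out. Calls in TFH KO against TFH WT numbered 1 with the compared groups only, 1 without naive replicate 1 of both genotypes and 0 to 2 with 1 library left out. Calls in naive KO against naive WT numbered 7 to 17 with 1 library left out. Without TFH replicate 2 of both genotypes 1225 genes were called in TFH KO against naive KO and 2104 in TFH WT against naive WT, against 1399 to 2683 and 1991 to 3726 with 1 library left out, and the macrophage covariate left 1634 in the WT comparison.

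With the macrophage covariate the sign changed, without a call, for C1qa in naive KO against naive WT (0.25) and in the interaction (-0.0144), C1qb in naive KO against naive WT (0.295) and in TFH KO against naive KO (0.0078), C3 in naive KO against naive WT (0.15), C1qbp in naive KO against naive WT (-0.0501), TFH KO against naive KO (-0.12) and TFH WT against naive WT (-0.0305), C6 in TFH KO against naive KO (0.0457), Cd93 in TFH KO against naive KO (0.57) and TFH WT against naive WT (0.0684), and Mbl2 in TFH WT against naive WT (-0.0314). Without naive replicate 1 of both genotypes it changed for C3 (0.31), C1qa (0.16) and C1qb (0.17) in naive KO against naive WT, and for C1qbp in TFH KO against naive KO (-0.068). Without TFH replicate 2 of both genotypes it changed for Cr1l in TFH WT against naive WT (0.0068). With 1 library left out the ranges that crossed 0 were -0.77 to 1.70 for C1qa, -0.84 to 2.14 for C1qb, -0.25 to 0.70 for Cfp and -0.16 to 0.0631 for Cr1l in TFH KO against TFH WT, -0.026 to 2.44 for C1qa and -0.61 to 0.45 for C3 in the interaction, -0.75 to 0.31 for C3 and -0.0673 to 0.0826 for C1qbp in naive KO against naive WT, -0.068 to 0.0818 for C1qbp and -0.62 to 0.0741 for Cd93 in TFH KO against naive KO, and -0.16 to 0.0068 for Cr1l in TFH WT against naive WT.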
